A study of Mus musculus with 6 samples.

Results

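Amino acid transporters were followed here through the crypts of the mouse colon, the epithelial glands that line its wall, and through the crypts of chemically induced colon adenomas. The group comprised every probe set, the array's reporter of a transcript, that the platform's table paired with exactly 1 symbol beginning with Slc1a, Slc3a, Slc6a, Slc7a, Slc36a, Slc38a or Slc43a, with Slc7a11 left out. The choice used symbols and no measured value, but it was made with earlier results of these data known. It gave 42 genes with 66 probe sets, of 12393 genes with 20380 single-symbol probe sets in all. No gene with a Slc36a symbol was among them, and Slc6a19 was not analysed here because it had no probe set of its own. Some carriers with Slc6a symbols move creatine, taurine or serotonin rather than an amino acid used for protein, and they were kept because the choice went by symbol.

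Messenger RNA was measured on 6 Affymetrix arrays, 2 in each of 3 groups, and the labels call the 2 arrays of a group biological replicates. Tumor crypts came from 12 pooled adenomas per array, taken from 2 male mice 90 days after azoxymethane, a colon carcinogen injected at 12.5 mg per kg in mice 6 to 8 weeks old, which was followed from day 5 by 3 rounds of dextran sulfate sodium (DSS) in drinking water at 2, 1.5 and 1.0%, each of 5 days and each followed by 14 days of plain water. DSS, a polymer that injures the colonic epithelium, was given at 1% for 2 days to the mice of the DSS crypts, and control crypts came from untreated mice, with the distal colons of 2 male mice 6 to 8 weeks old pooled per array in both groups. All mice, controls included, were heterozygous for Lgr5-lacZ, a lacZ reporter of Lgr5, a receptor that marks intestinal stem cells. The tumor mice were older at collection than the others and had received both agents, so that age, azoxymethane, earlier DSS and tumor cannot be told apart in comparisons with tumor crypts. Pooling hid the spread between animals, and the p-values measure only the spread between pools.

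Each probe set's value was its MAS5 signal, a linear intensity. The arrays' medians lay between 94.2 and 131, both tumor arrays being highest at 112 and 131, and 2 arrays per group limit the precision. Poly-A control transcripts averaged 874 on control replicate 1 and 1314 on DSS replicate 1 and lay between 351 and 443 on the other arrays. An excess of 3' over 5' signal within a transcript is larger where RNA is less intact. For actin this excess (log2) was 0.95 and 1.04 in tumor crypts, against 1.20 to 1.63 in DSS and control crypts. For Gapdh it was -0.05 and 0.04 in tumor crypts, against 0.07 to 0.23 in DSS and control crypts. Tumor crypts thus had the smallest excess for both genes, and the part of this difference in the results was not tested. Markers of epithelium summed to 87105 to 93245 on tumor, 96052 to 111899 on DSS and 90889 to 96487 on control arrays, and 1 of 10 was called in tumor minus control. Markers of other cells moved too. Leukocyte and myeloid markers, of which 5 of 11 were tested and 2 were higher in tumor crypts, summed to 5337 on tumor replicate 1 and 10602 on tumor replicate 2, against 1902 to 2547 on DSS and 2112 to 2536 on control arrays. Neutrophil markers, of which 2 of 7 were tested and both were higher, summed to 1079 and 11791 on the tumor arrays, against 87.1 to 145 on DSS and 106 to 142 on control arrays. On tumor replicate 1 a few genes carried these sums, among them Lyz2 and S100a8, while Ptprc, the pan-leukocyte marker, was at 73.4 on tumor replicate 1 and 415 on tumor replicate 2, against 165 and 207 in control crypts. Mature colonocyte markers, of which 6 of 7 tested were lower, summed to 14282 to 15662 on tumor, 42068 to 50206 on DSS and 48428 to 56154 on control arrays. Fibroblast markers other than Vim, the 1 of 8 tested that was higher in tumor crypts, summed to 1174 on tumor replicate 1 and 7620 on tumor replicate 2, against 2798 and 5064 on DSS and 2062 and 4051 on control arrays. Jchain, a plasma cell gene, was low on every replicate 1 array and high on every replicate 2 array, with 97.5 and 1637 in tumor, 95.4 and 3094 in DSS, and 186 and 2422 in control crypts. Smooth muscle markers summed to 827 and 1706 on tumor, 1777 and 3867 on DSS, and 1364 and 4072 on control arrays. Of these markers, 6 of 7 were tested and none was called in tumor minus control. Every smooth muscle and fibroblast marker was lower on replicate 1 than on replicate 2 of its group. All 7 tested enteroendocrine markers were lower in tumor crypts, and no marker of any list was listed at 0. In such bulk samples, fewer cells of a type and less RNA per cell cannot be told apart.

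Amino acid carriers set which amino acids cross the apical and basolateral membranes of an epithelial cell. The heavy chains encoded by Slc3a1 and Slc3a2 are glycoproteins that bring a light chain of the Slc7 family to the membrane, where the light chain does the transport. Slc3a1 (rBAT) works with Slc7a9 at the apical membrane of absorptive cells, where the pair takes up cystine and cationic amino acids, and loss of either causes cystinuria in people. Slc3a2 (4F2hc, or CD98) works with Slc7a5 (LAT1), Slc7a8 (LAT2), Slc7a6 and Slc7a7, which exchange large neutral or cationic amino acids for others. The Slc1, Slc6 and Slc38 carriers couple uptake to sodium and need no heavy chain.

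The 2 heavy chains moved in opposite directions in tumor crypts, each with a light chain that it partners, so the stretches before the start sites of these 4 genes are shown. RefSeq's promoter table (GRCm38.p6) held 27 of the 42 genes, and 11 of the 13 genes called in tumor minus control. Each line gives the 250 bases before the most upstream listed start, 5′ to 3′ on the gene's strand, with matches to searched motifs in capitals. They lie at chr17:85028097-85028346 (+ strand) for Slc3a1, chr7:35448842-35449091 (+ strand) for Slc7a9, chr19:8713898-8714147 (- strand) for Slc3a2 and chr14:54781887-54782136 (- strand) for Slc7a8.
Slc3a1: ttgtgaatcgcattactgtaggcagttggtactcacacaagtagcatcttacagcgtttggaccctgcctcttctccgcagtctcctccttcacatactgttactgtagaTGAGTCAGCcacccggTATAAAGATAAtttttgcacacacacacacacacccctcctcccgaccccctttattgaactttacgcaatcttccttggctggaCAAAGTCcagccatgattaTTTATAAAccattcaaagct
Slc7a9: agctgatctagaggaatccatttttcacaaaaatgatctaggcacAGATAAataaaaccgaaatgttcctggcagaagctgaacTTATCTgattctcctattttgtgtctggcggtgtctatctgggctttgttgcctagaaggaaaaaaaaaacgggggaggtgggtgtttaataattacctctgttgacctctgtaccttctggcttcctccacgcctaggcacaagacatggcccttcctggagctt
Slc3a2: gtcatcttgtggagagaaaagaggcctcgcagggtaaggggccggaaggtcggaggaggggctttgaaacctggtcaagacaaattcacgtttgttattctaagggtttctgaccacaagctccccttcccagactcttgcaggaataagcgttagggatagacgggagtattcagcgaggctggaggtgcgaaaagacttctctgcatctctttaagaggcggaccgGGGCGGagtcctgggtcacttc
Slc7a8: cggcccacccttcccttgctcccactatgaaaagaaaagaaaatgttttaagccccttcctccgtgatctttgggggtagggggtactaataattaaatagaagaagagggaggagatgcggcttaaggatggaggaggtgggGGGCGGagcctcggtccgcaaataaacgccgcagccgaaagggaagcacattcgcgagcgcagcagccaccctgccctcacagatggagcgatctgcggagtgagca

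Each window was searched on both strands for 10 motifs. These were the C/EBP-ATF element read by ATF4 (TGATGNAA), the E-box (CACGTG), the TCF motif (ATCAAAG), the HNF1 half-site (GTTAAT), the HNF4 motif (CAAAGTC), the CDX motif (TTTATGG), the core of the TATA box (TATAAA), the GC box (GGGCGG), the antioxidant element (TGANNCAGC) and the motif of GATA factors (AGATAA). In the Slc3a1 window the capitals mark, from the distal end, TGANNCAGC at -140, TATAAA at -124 overlapping AGATAA at -119, CAAAGTC at -39, and TATAAA at -20 on the opposite strand overlapping TATAAA at -18. The Slc7a9 window held AGATAA at -205 and, on the opposite strand, at -166. The Slc3a2 and Slc7a8 windows each held GGGCGG, at -22 and at -107. No such match lay in the windows of Slc7a6 and Slc7a7, the other called light chains of Slc3a2 in the promoter table. Of the table's 32851 windows, 4.16% held TGANNCAGC, 12.4% TATAAA, 9.99% AGATAA, 3.84% CAAAGTC and 32.7% GGGCGG. TGATGNAA, present in 3.45% of all windows, was found among the called members only before Slc7a7, at -141. GGGCGG was found in 3 of 5 windows of genes higher in tumor crypts and in 3 of 6 windows of genes lower there. A match describes letters and shows no bound factor.

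Of the 42 genes, 20 had a probe set above its array's median on at least 2 arrays and were tested, each by its probe set of highest mean. The 22 others stayed low throughout, with highest intensities between 2.34 and 77.0. They included Slc7a1, a cationic carrier, with at most 17.9, and Slc38a5, a glutamine and histidine carrier, with at most 22.5. Genes were tested with limma on log2(intensity + 17.8), with Benjamini-Hochberg adjustment over all 7456 genes tested, and a gene is called where the adjusted p was under 0.05. Differences below are on that log2 scale, which understates changes of dim probe sets, and errors of differences are standard errors.

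Transporters moved in both directions in tumor crypts. Of the 20 tested, 13 were called in tumor minus control, against 22.6% of all genes tested. The 6 higher (12.9% of all genes) were Slc3a2, Slc7a5, Slc7a6, Slc7a7, Slc7a8 and Slc1a4, and the 7 lower (9.75% of all genes) were Slc6a14, Slc6a4, Slc3a1, Slc7a9, Slc1a1, Slc6a20a and Slc6a8. The median difference was 0.29 over the 20 genes and 0.05 over all genes. The filter bears on these counts, since Slc7a5, Slc7a8 and Slc1a4 passed it only through their tumor arrays and Slc3a1 only through its control arrays, and such genes had to differ. All 4 were called, as were 9 of the other 16. When each array was centred on its median, which moved the all-gene median by -0.25 to -0.20, the split of transporters was 4 higher and 7 lower, against 652 higher and 1222 lower of all genes (959 and 727 as reported). Quantile normalization gave 5 higher and 7 lower transporters, against 885 and 906 of all genes. Single arrays mattered: no transporter was called higher without control replicate 2, and none without tumor replicate 2. Calls over all genes fell as well when an array was left out.

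**Figure D1:**
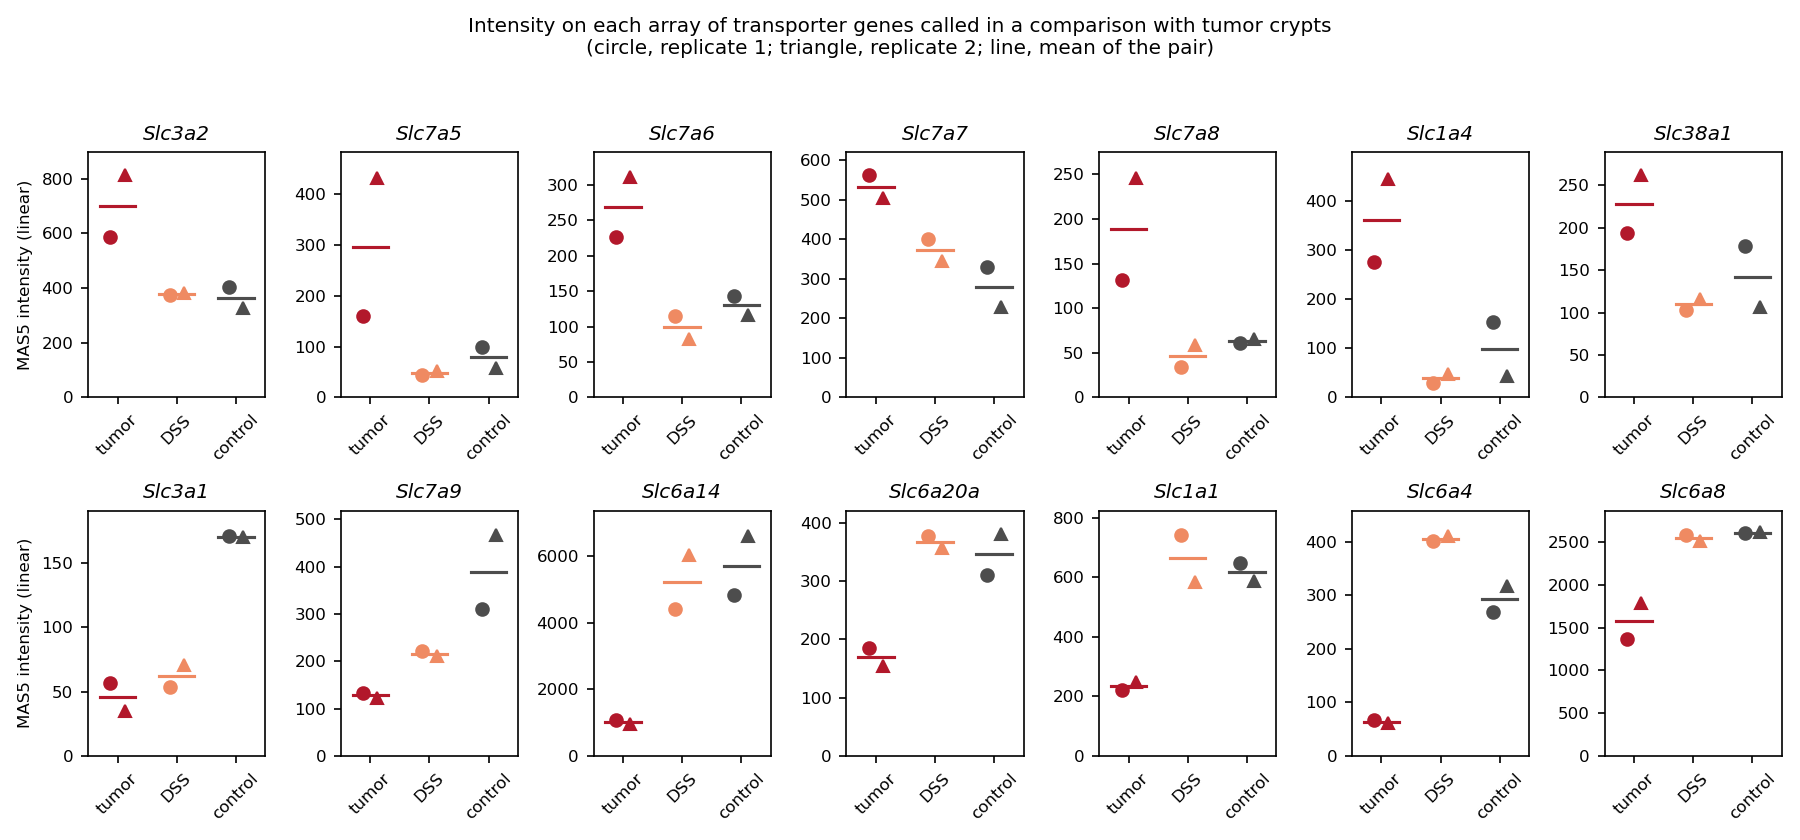
MAS5 intensity (linear scale, each axis starting at 0) on every array for the 14 transporter genes called in tumor minus control or tumor minus DSS, with tumor, DSS and control crypts from left to right. Circles are replicate 1, triangles replicate 2 and lines the mean of the pair. In the upper row both tumor arrays lie above all DSS and control arrays. In the lower row they lie below them, except for Slc3a1, where the tumor and DSS arrays overlap.

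The apical pair of heavy and light chain was lower in tumor crypts. Slc3a1 had intensities of 56.9 and 35.0 in tumor crypts, 53.7 and 70.3 in DSS crypts, and 171 and 170 in control crypts. Slc7a9 had 133 and 123 in tumor crypts, 221 and 210 in DSS crypts, and 311 and 466 in control crypts. For both genes all tumor and DSS arrays lay below both control arrays, and only for Slc7a9 did the tumor arrays also lie below the DSS arrays. In tumor minus control, Slc3a1 fell by 1.58 ± 0.31 (adjusted p = 0.00872) and Slc7a9 fell by 1.45 ± 0.23 (adjusted p = 0.00394), and both calls held in every alternative in which the gene was tested. Tumor minus DSS was -0.34 ± 0.31 for Slc3a1 (adjusted p = 0.457) and -0.68 ± 0.23 for Slc7a9 (adjusted p = 0.0651). Slc7a9 passed under median centring (-0.91, adjusted p = 0.0182) and quantile normalization (-0.89, adjusted p = 0.0328). Slc3a1 no longer passed the filter without either of the control arrays. Mature colonocyte markers, as given above, were lower on the tumor arrays together with this pair and with the other transporters lower in tumor crypts, and their part in these results was not tested.

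The other heavy chain and its light chains were higher in tumor crypts. Slc3a2 had 587 and 813 in tumor crypts, 376 and 380 in DSS crypts, and 403 and 327 in control crypts, so that the tumor arrays stood apart from the other 4. In tumor minus control Slc3a2 rose by 0.89 ± 0.21 (adjusted p = 0.0189). All 4 of its light chains that were tested were called higher, against 12.9% of all genes. Of these, Slc7a5 and Slc7a8 had passed the filter only through their tumor arrays, so the filter itself selected for a difference. The widest spread between tumor arrays was in Slc7a5. Slc7a5, the main carrier of leucine and other large neutral amino acids into dividing cells, had 159 and 431 in tumor crypts, 44.9 and 52.7 in DSS crypts, and 100 and 57.3 in control crypts. Slc7a8, which takes small neutral amino acids as well, had 132 and 246 in tumor crypts, 34.4 and 59.3 in DSS crypts, and 61.6 and 65.5 in control crypts. On both genes tumor replicate 2 was the higher tumor array, and every tumor array exceeded every other array. The rises in tumor minus control were 1.58 ± 0.44 for Slc7a5 (adjusted p = 0.0366) and 1.29 ± 0.36 for Slc7a8 (adjusted p = 0.0372).

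The light chains that exchange cationic for neutral amino acids, Slc7a6 and Slc7a7, rose as well. Slc7a6 had 227 and 311 in tumor crypts, 115 and 83.0 in DSS crypts, and 143 and 117 in control crypts. Slc7a7, the form usual in intestine and kidney and also made by macrophages, had 563 and 504 in tumor crypts, 401 and 346 in DSS crypts, and 329 and 230 in control crypts. Slc7a6 was ordered tumor, control, DSS and Slc7a7 tumor, DSS, control, with no overlap between neighbouring groups on either gene. In tumor minus control Slc7a6 rose by 0.95 ± 0.26 (adjusted p = 0.0354) and Slc7a7 by 0.91 ± 0.21 (adjusted p = 0.0193). On tumor replicate 2, 10 of 11 leukocyte and myeloid and 7 of 7 neutrophil markers exceeded both control arrays, against 4 of 11 and 3 of 7 on tumor replicate 1. Slc7a7 was higher on tumor replicate 1 than on tumor replicate 2, while Slc3a2, Slc7a5, Slc7a6 and Slc7a8 were higher on tumor replicate 2, and the part of those markers in the results was not tested.

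The calls of Slc3a2 and its light chains depended on single arrays, with every difference still positive. Slc3a2 was not called without control replicate 2 (0.75, adjusted p = 0.106) or tumor replicate 2 (0.67, adjusted p = 0.111). Slc7a5 was not called without control replicate 1 (1.91, adjusted p = 0.0551), control replicate 2 (1.26, adjusted p = 0.189) or tumor replicate 2 (0.91, adjusted p = 0.216). Slc7a6 was not called without these same arrays, with differences of 0.73 to 1.07 and adjusted p-values of 0.0703 to 0.203. Slc7a7 was not called without control replicate 2 (0.67, adjusted p = 0.107), tumor replicate 1 (0.83, adjusted p = 0.0639) or tumor replicate 2 (0.99, adjusted p = 0.0541). Slc7a8 was not called without control replicate 1 (1.26, adjusted p = 0.111) or control replicate 2 (1.32, adjusted p = 0.128), and without a tumor array it no longer passed the filter. Median centring ended the calls of Slc7a6 (0.70, adjusted p = 0.0801) and Slc7a7 (0.66, adjusted p = 0.0743), and quantile normalization that of Slc7a6 (0.77, adjusted p = 0.0710). A term for arrays whose poly-A controls were high ended those of Slc7a5 (1.70, adjusted p = 0.0687) and Slc7a8 (1.13, adjusted p = 0.0979), and testing all genes with no filter left Slc7a5, Slc7a6 and Slc7a8 at adjusted p-values of 0.0746, 0.0745 and 0.0680.

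**Figure D2:**
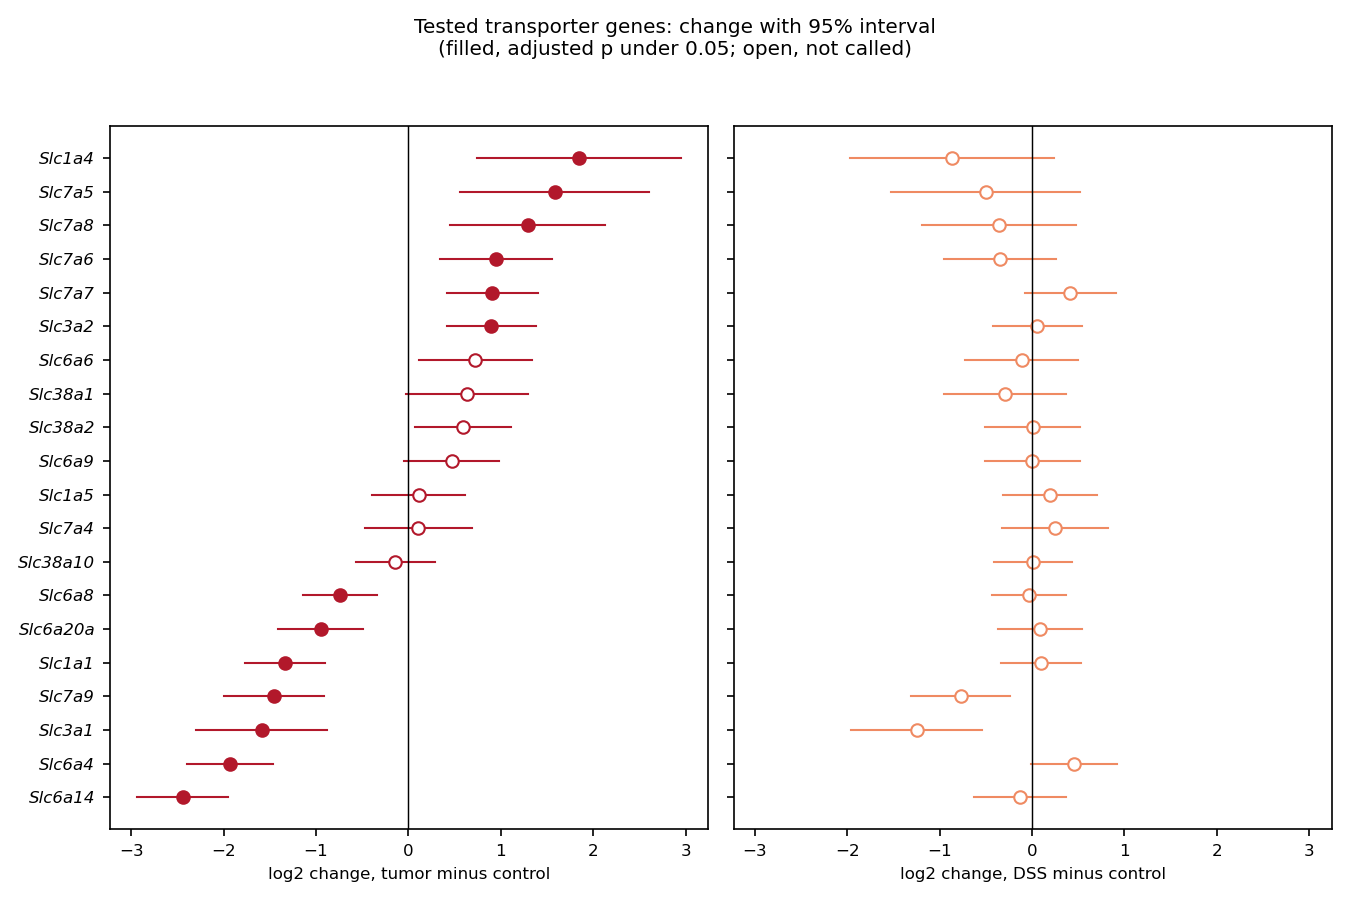
Log2 difference in intensity of the 20 tested transporter genes with its 95% interval, for tumor minus control on the left and DSS minus control on the right, sorted by the tumor difference. Filled points had an adjusted p under 0.05. On the left 6 genes are filled above 0 and 7 below it, from Slc1a4 at 1.85 to Slc6a14 at -2.44, and on the right no point is filled. Both panels share the control arrays.

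Among carriers that work without a heavy chain, the sodium- and chloride-coupled Slc6 family had 6 tested genes. Of these, 4 were lower in tumor crypts, against 9.75% of all genes, and none was called higher, against 12.9%. Slc6a14, a concentrative carrier of neutral and cationic amino acids at the apical membrane of the colon, showed the largest difference of the 20. It had 1083 and 968 in tumor crypts, 4405 and 6025 in DSS crypts, and 4824 and 6595 in control crypts. Tumor crypts thus averaged 0.180 times the intensity of control crypts, and DSS and control arrays overlapped. The fall in tumor minus control was 2.44 ± 0.22 (adjusted p = 0.000248), and the fall in tumor minus DSS was 2.31 ± 0.22 (adjusted p = 0.000281). Slc6a20a, a proline and imino acid carrier, had 185 and 155 in tumor crypts, 377 and 356 in DSS crypts, and 310 and 381 in control crypts, with both tumor arrays below all others. It fell by 0.95 ± 0.20 in tumor minus control (adjusted p = 0.0119). Slc6a9, a glycine carrier and the other tested amino acid carrier of the family, had 189 and 234 in tumor crypts, 134 and 162 in DSS crypts, and 144 and 150 in control crypts. Its difference in tumor minus control was 0.47 ± 0.22 (adjusted p = 0.172). Slc6a20a was not called without control replicate 2 (-0.81, adjusted p = 0.0813) or tumor replicate 2 (-0.83, adjusted p = 0.0658), whereas Slc6a14 was called in every alternative.

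Of the 3 tested Slc6 carriers of other substrates, 2 were lower, against 9.75% of all genes. Slc6a4, the serotonin transporter by which gut epithelium clears serotonin released from enteroendocrine cells, had 66.5 and 60.7 in tumor crypts, 401 and 410 in DSS crypts, and 269 and 317 in control crypts. The 3 groups did not overlap, with tumor lowest and DSS highest. Slc6a4 fell by 1.93 ± 0.20 in tumor minus control (adjusted p = 0.000561) and fell by 2.38 ± 0.20 in tumor minus DSS (adjusted p = 0.000205). Enteroendocrine markers summed to 1671 to 2025 on tumor, 6340 to 6748 on DSS and 5324 to 5828 on control arrays, the same order of groups as Slc6a4. Some enteric neurons also make this transporter, and markers of enteric neurons and glia were below the array median throughout (10 of 10 measured). The part of enteroendocrine cells or neurons in the result was not tested. Slc6a8, the creatine transporter, had 1361 and 1788 in tumor crypts, 2582 and 2509 in DSS crypts, and 2604 and 2614 in control crypts. Its tumor arrays differed more from each other than the 4 other arrays did, and both lay below those 4. Slc6a8 fell by 0.74 ± 0.17 in tumor minus control (adjusted p = 0.0196), a call lost without control replicate 1 (-0.74, adjusted p = 0.0637), control replicate 2 (-0.73, adjusted p = 0.0827) or tumor replicate 1 (-0.54, adjusted p = 0.0784). Slc6a6, the taurine transporter, had 413 and 363 in tumor crypts, 239 and 182 in DSS crypts, and 293 and 175 in control crypts. Its difference in tumor minus control was 0.73 ± 0.27 and did not pass (adjusted p = 0.0862), but it passed without control replicate 1 (1.07, adjusted p = 0.0376) and with a term for arrays whose poly-A controls were high (0.99, adjusted p = 0.0244). In tumor minus DSS, Slc6a6 missed the threshold at 0.84 ± 0.27 (adjusted p = 0.0503). It passed with a pseudocount of 107 (adjusted p = 0.0466), the mean over probe sets (adjusted p = 0.0454) or only those 2 groups (adjusted p = 0.0301). With the poly-A term it passed at 1.10 (adjusted p = 0.0156), and it also passed without either control array. Median centring (0.60, adjusted p = 0.142) and quantile normalization (0.69, adjusted p = 0.100) moved Slc6a6 away from the threshold.

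The Slc1 carriers split in 3 ways. Slc1a1 (EAAC1), which takes up glutamate, aspartate and cysteine, had 222 and 247 in tumor crypts, 743 and 586 in DSS crypts, and 650 and 587 in control crypts. Both tumor arrays lay far below the other 4, among which DSS and control overlapped. Slc1a1 fell by 1.33 ± 0.19 in tumor minus control (adjusted p = 0.00219), and the call held in every alternative. Slc1a4 (ASCT1), an exchanger of alanine, serine and cysteine, had 277 and 446 in tumor crypts, 30.04 and 48.8 in DSS crypts, and 154 and 43.7 in control crypts. The control arrays were far apart, with control replicate 2 inside the range of the DSS arrays. Slc1a4 rose by 1.85 ± 0.48 in tumor minus control (adjusted p = 0.0281), but not without control replicate 2 (1.10, adjusted p = 0.126) or tumor replicate 2 (1.52, adjusted p = 0.149), nor with no filter (adjusted p = 0.0614). Slc1a5 (ASCT2), the glutamine exchanger often studied together with Slc7a5, had 588 and 643 in tumor crypts, 563 and 755 in DSS crypts, and 485 and 665 in control crypts. The groups overlapped, and its difference in tumor minus control was 0.11 ± 0.22 with a 95% interval from -0.39 to 0.61 (adjusted p = 0.753). The sign of that difference turned under median centring (-0.14), without control replicate 1 (-0.11) and with a term for arrays whose poly-A controls were high (-0.10).

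None of the 3 tested Slc38 carriers was called in tumor minus control, against 22.6% of all genes. Slc38a2 (SNAT2), a carrier of glutamine, alanine and other small neutral amino acids that cells make more of when amino acids are short, had 2095 and 3117 in tumor crypts, 1477 and 1949 in DSS crypts, and 1711 and 1671 in control crypts. Slc38a1 (SNAT1), a related glutamine carrier, had 194 and 261 in tumor crypts, 103 and 116 in DSS crypts, and 178 and 107 in control crypts. On both genes the 2 tumor arrays were the highest of the 6. The differences in tumor minus control were 0.59 ± 0.23 for Slc38a2 (95% interval 0.07 to 1.11, adjusted p = 0.0965) and 0.64 ± 0.29 for Slc38a1 (95% interval -0.02 to 1.30, adjusted p = 0.147). Without tumor replicate 1, Slc38a2 passed at 0.88 (adjusted p = 0.0298). Slc38a10, a member with a less settled substrate, had 1037 and 1353 in tumor crypts, 1365 and 1276 in DSS crypts, and 1409 and 1217 in control crypts. Its groups overlapped, with a difference of -0.14 ± 0.19 in tumor minus control (adjusted p = 0.621). Slc7a4, the only tested gene of the cationic branch of Slc7, lay between 171 and 278 on all arrays and differed by 0.11 ± 0.25 in tumor minus control (adjusted p = 0.795).

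Genes with several probe sets allowed a check within the gene. Of the 66 probe sets, 28 passed the filter, and in a fit over 11194 probe sets, of which 20.2% were called in tumor minus control, 17 of the 28 were called, 7 higher and 10 lower. The second probe set of Slc6a14 fell by 2.91 ± 0.23, and that of Slc6a8 by 1.09 ± 0.18. The second probe set of Slc7a6 rose by 0.98 ± 0.22 (adjusted p = 0.0190). Slc1a1 fell on a second probe set by 1.25 ± 0.31 (adjusted p = 0.0245), and the remaining one, below the filter, was at -0.66 ± 0.31 (adjusted p = 0.256 with no filter). The probe sets of Slc1a4 differed more, with 1.85 on the one used, 1.15 ± 0.39 on another that did not pass (adjusted p = 0.0746) and 0.30 ± 0.44 on the one below the filter (adjusted p = 0.751 with no filter). Slc38a10 had 7 probe sets and Slc7a4 had 3, and none of those that passed the filter was called. Fewer of these probe sets were called without control replicate 1, control replicate 2 or tumor replicate 2, and calls over all genes fell in these fits too.

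**Figure D3:**
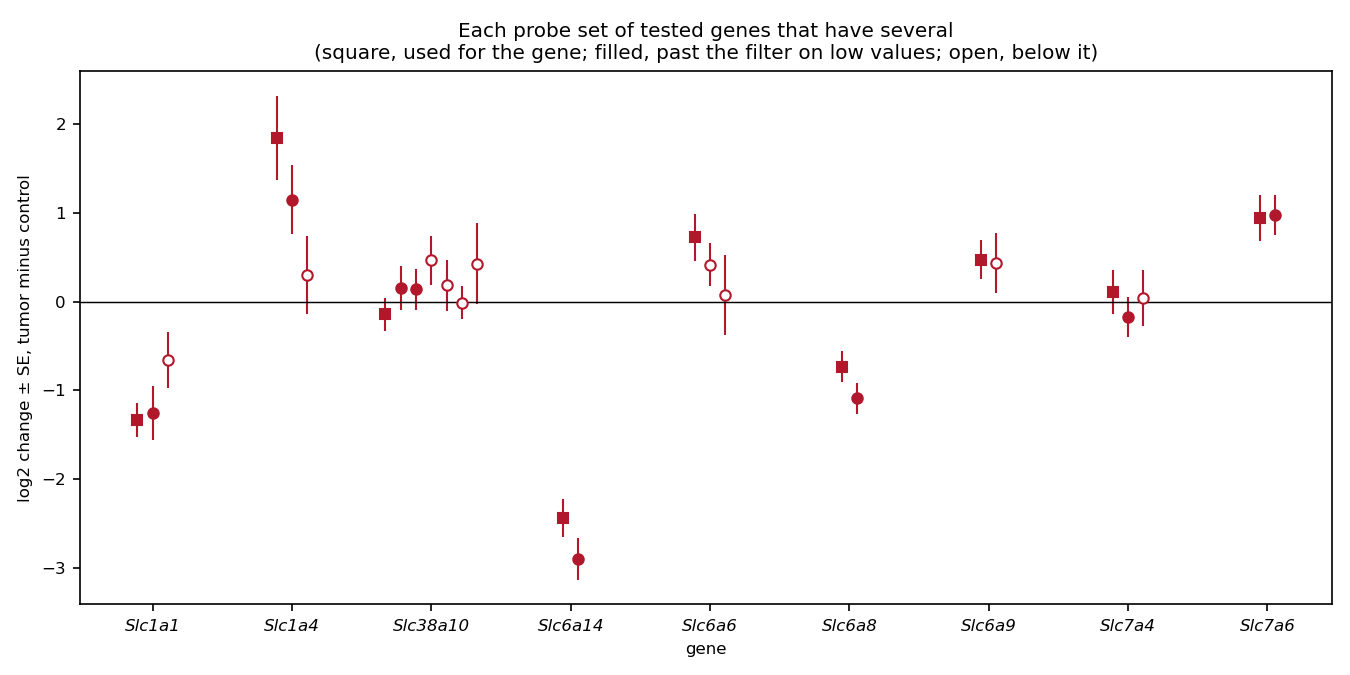
Log2 difference of tumor minus control with its standard error for each probe set of tested transporter genes that have several. Squares are the probe sets used for the gene, filled marks passed the filter on low values and open marks did not. The probe sets of Slc6a14, Slc6a8 and Slc7a6 lie close together, whereas those of Slc1a4 run from 0.30 to 1.85.

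Slc38a4, a carrier of neutral and cationic amino acids best known from liver, was below the filter and was noticed after its values were seen. One probe set read 62.1 and 62.8 in tumor crypts, 6.08 and 7.73 in DSS crypts, and 7.69 and 1.47 in control crypts. A second read 32.0 and 47.7 in tumor crypts, 2.77 and 2.60 in DSS crypts, and 2.37 and 0.464 in control crypts. The tumor arrays were the highest on both, and every intensity of both was below its array's median. With no filter on low values, the differences in tumor minus control were 1.86 ± 0.24 (adjusted p = 0.00611) and 1.58 ± 0.22 (adjusted p = 0.00789).

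Against DSS crypts, 11 of the 20 transporters were called in tumor crypts, against 26.2% of all genes. The 6 higher (14.9% of all genes) were Slc1a4 at 2.71 ± 0.48, Slc7a5 at 2.09 ± 0.44, Slc7a8 at 1.65 ± 0.36, Slc7a6 at 1.30 ± 0.26, Slc38a1 at 0.93 ± 0.29 and Slc3a2 at 0.84 ± 0.21. The 5 lower (11.3% of all genes) were Slc6a4, Slc6a14, Slc1a1 at -1.43 ± 0.19, Slc6a20a at -1.04 ± 0.20 and Slc6a8 at -0.70 ± 0.17. Slc1a4, Slc7a5 and Slc7a8 had passed the filter only through their tumor arrays, so the filter itself selected for a difference, and 8 of the other 17 genes were called. Slc38a1 passed narrowly (adjusted p = 0.0450), and its call was lost without any 1 of the tumor or DSS arrays (0.73 to 1.13, adjusted p = 0.0503 to 0.211) and under both rescalings (0.70 and 0.74). Slc7a7 (0.50 ± 0.21, adjusted p = 0.128) and Slc38a2 (0.59 ± 0.23, adjusted p = 0.0919) did not pass. Median centring gave 4 higher and 6 lower transporters, against 701 and 1256 of all genes (1109 and 843 as reported), and quantile normalization 5 and 6, against 969 and 982. Fewer transporters were called when a DSS or tumor array was left out, and fewer of all genes were called too. Slc3a2 was then not called without either DSS array or tumor replicate 2 (0.61 to 0.85, adjusted p = 0.0867 to 0.116) or under median centring (0.61, adjusted p = 0.0611), nor Slc6a8 without either DSS array or tumor replicate 1 (-0.72 to -0.51, adjusted p = 0.0903 to 0.125). Slc7a5 was not called without DSS replicate 1 (2.00, adjusted p = 0.0507) or tumor replicate 2 (1.42, adjusted p = 0.0591), nor Slc7a6 without DSS replicate 2 (1.10, adjusted p = 0.0596) or tumor replicate 2 (1.08, adjusted p = 0.0614). Without DSS replicate 1 the calls of Slc7a8 (1.37, adjusted p = 0.0854) and Slc6a20a (-0.999, adjusted p = 0.0582) were lost too. This comparison shares its tumor arrays with tumor minus control.

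No transporter was called in DSS minus control. Of all 7456 genes tested, 0% were called by limma, and 2.51% had an unadjusted p under 0.05. At that level stood 2 of the 20 transporters, Slc3a1 and Slc7a9, the apical heavy chain and its light chain. Slc3a1 differed by -1.25 ± 0.31 (unadjusted p = 0.00360) and Slc7a9 by -0.77 ± 0.23 (unadjusted p = 0.0106), each with an adjusted p of 1.00, and both DSS arrays lay below both control arrays on each gene. Mean intensity of Slc3a1 was 62.0 ± 11.8 in DSS crypts and 170 ± 0.907 in control crypts (SD, n = 2 each). Next by p were Slc6a4, at 0.45 ± 0.20 (unadjusted p = 0.0545), and Slc7a7, at 0.41 ± 0.21 (unadjusted p = 0.0888), both higher on each DSS array than on each control array. Groups did not overlap for 8 of the 20 transporters, against 26.5% of all genes. For Slc6a14 the difference was -0.13 with a 95% interval from -0.62 to 0.36, for Slc3a2 it was 0.06 (-0.43 to 0.54) and for Slc1a5 0.19 (-0.31 to 0.70).

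**Figure D4:**
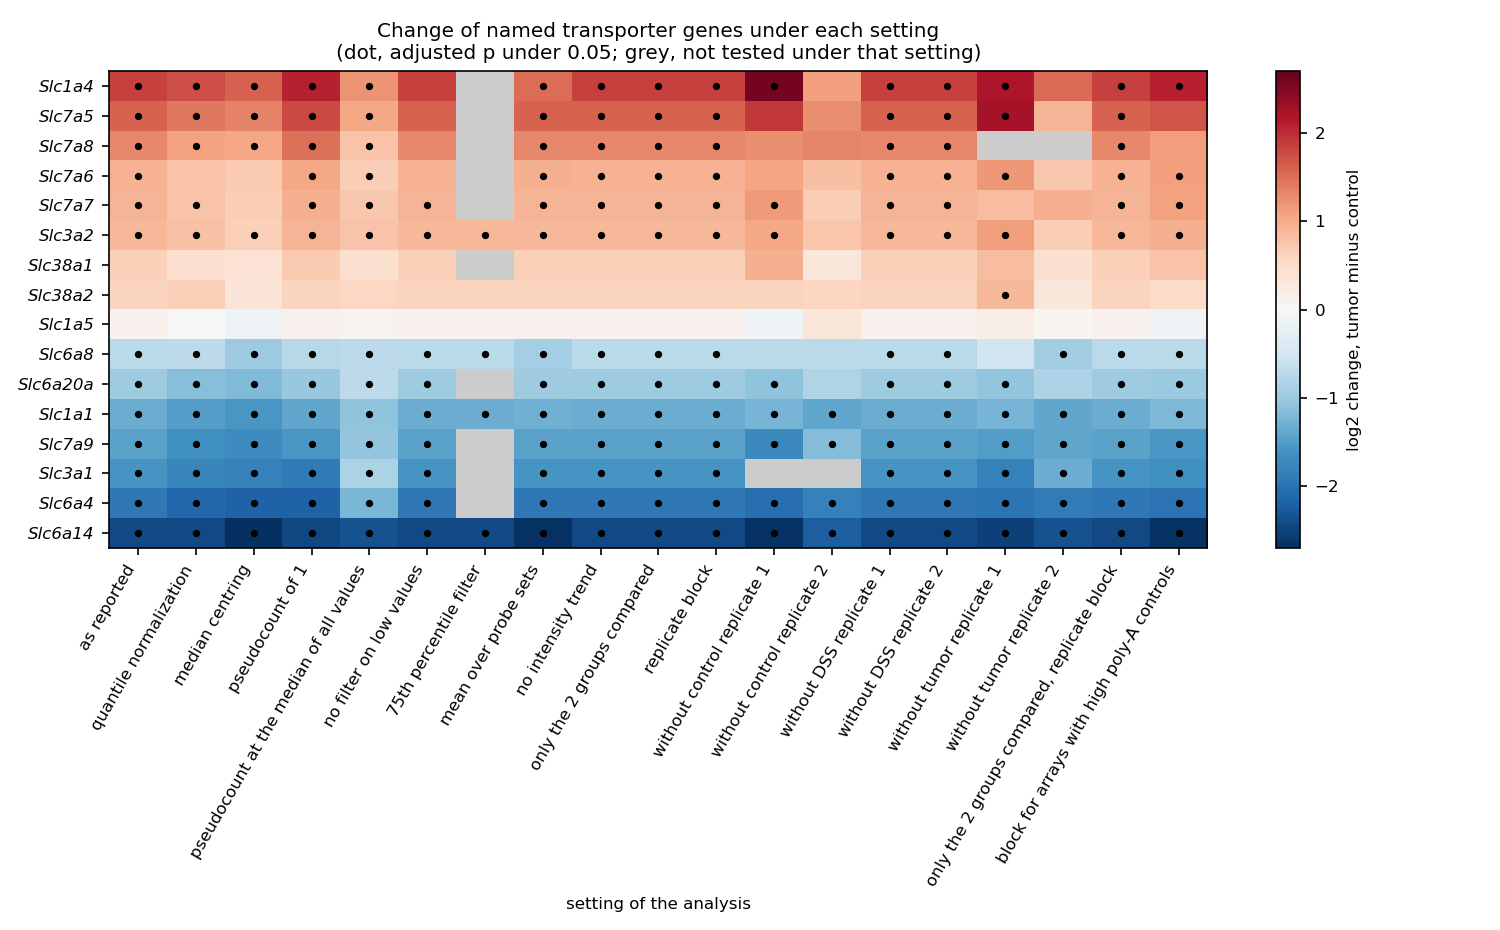
Log2 difference of tumor minus control for 16 transporter genes (rows) under each setting of the analysis (columns), on a colour scale from blue (lower in tumor) to red (higher). Dots mark an adjusted p under 0.05 and grey cells mark genes not tested under that setting. Slc6a14, Slc6a4, Slc3a1, Slc7a9 and Slc1a1 carry a dot wherever they were tested, and the higher genes lose theirs without control replicate 2 or tumor replicate 2.

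Lists of genes that make, sense or use amino acids were counted beside the shares of all genes, 12.9% higher and 9.75% lower in tumor minus control. Of 10 tested genes on the list of serine, glycine, proline and one-carbon metabolism, 4 were higher and none was called lower, with a list median of 0.73. Phgdh, the first enzyme of serine synthesis, had 944 and 1436 in tumor crypts, 148 and 190 in DSS crypts, and 391 and 217 in control crypts, a difference of 1.93 ± 0.31 from control (adjusted p = 0.00370). Psat1, the next enzyme of that pathway, rose by 1.70 ± 0.26 and Shmt2, the mitochondrial enzyme that turns serine into glycine, by 1.42 ± 0.24. The remaining one, Prodh, an enzyme that breaks proline down, rose by 1.66 ± 0.30 and had passed the filter only through its tumor arrays. Of 18 aminoacyl-tRNA synthetases, which load amino acids onto tRNA, 3 were higher (Rars at 0.64, Vars at 0.87 and Cars at 0.76), none was lower and the median was 0.45. On the list of ATF4, the factor that answers amino acid shortage, and its response targets, 18 genes were tested, Atf4 itself among them. Of these, 2 were higher (Ddit4 at 1.65 and Atf3 at 1.21) and 1 was lower (Cth, a cysteine-producing enzyme, at -1.88). Atf3 had 1445 and 2805 in tumor crypts, 2379 and 3112 in DSS crypts, and 723 and 1025 in control crypts. It was not called in tumor minus DSS (-0.43, adjusted p = 0.355). The list median was 0.26. The synthetases and the ATF4 list each had 16.7% called, below the 22.6% of all genes. None of 22 genes on the list of amino acid sensing around mTORC1, which also held Mtor and its target Eif4ebp1, was called by limma. On that list 5 of the 22 genes had an unadjusted limma p under 0.05, whereas 22.6% of all genes passed even after adjustment. The list median was -0.08. Eif4ebp1 and Sesn2 stood on the ATF4 list as well.

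Of 14 genes of glutamine, glutamate, arginine and polyamine metabolism, 1 was higher and 2 were lower in tumor minus control, 21.4% in all. The higher was Arg1, arginase of liver and myeloid cells, with 1262 and 1999 in tumor crypts, 8.68 and 15.5 in DSS crypts, and 13.1 and 9.31 in control crypts (5.80 ± 0.32, adjusted p = 4.03e-05). The lower were Gpt, an alanine aminotransferase, at -0.96 and Oat, an ornithine aminotransferase, at -0.74. Of 8 genes of branched-chain, tryptophan and taurine metabolism, Ido1, which breaks down tryptophan, was the 1 called, at 2.62 ± 0.58, with 128 and 465 in tumor crypts, 10.4 and 31.4 in DSS crypts, and 35.0 and 17.6 in control crypts. Arg1 and Ido1 passed the filter only through their tumor arrays and so had to differ. Like the leukocyte and neutrophil markers, both Arg1 and Ido1 were higher on tumor replicate 2 than on tumor replicate 1, and the part of those cells was not tested. Of 6 other amino acid and peptide carriers or partner proteins, Slc15a1 (PEPT1), the apical carrier of dipeptides and tripeptides, was the 1 called. It had 51.4 and 90.7 in tumor crypts, 345 and 676 in DSS crypts, and 614 and 869 in control crypts, a fall of 3.11 ± 0.35 in tumor minus control (adjusted p = 0.000756). In DSS minus control none of these 7 lists had a called gene. The lists' calls were not examined with arrays left out.

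**Figure D5:**
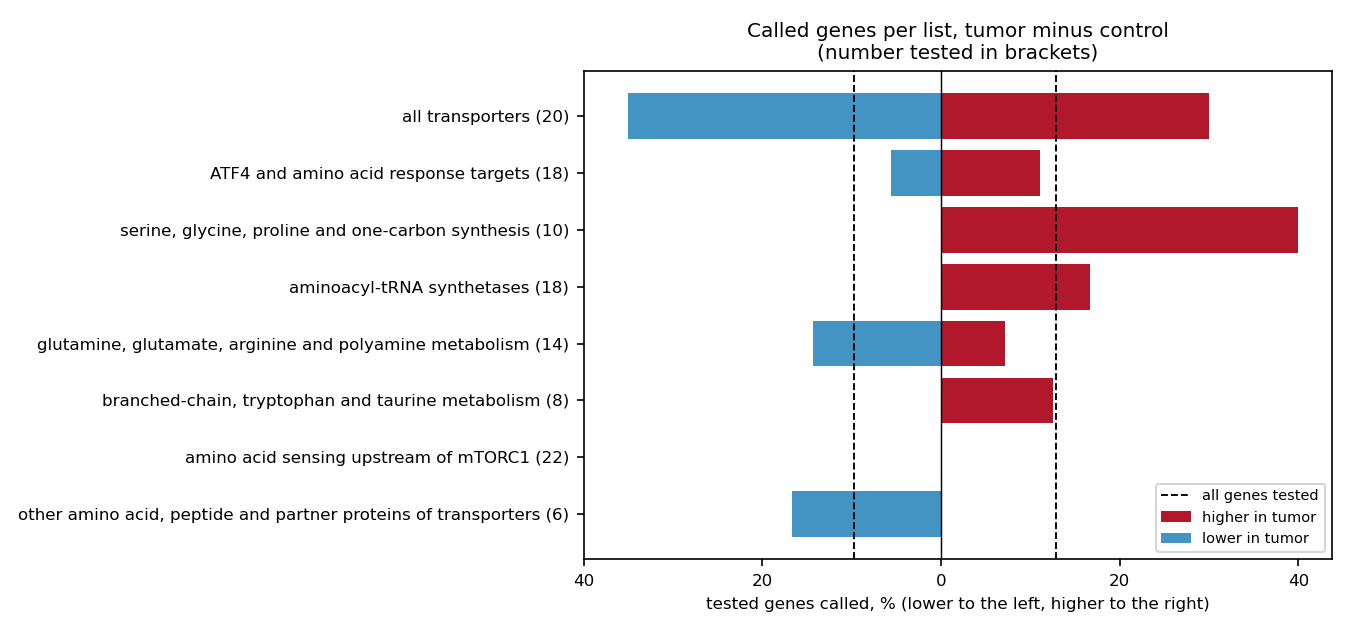
Share of tested genes called in tumor minus control, in percent, for the transporters and 7 lists of related genes, with genes lower in tumor crypts to the left and genes higher to the right and the number tested in brackets. Dashed lines mark all genes tested (9.75% lower, 12.9% higher). Transporters pass both lines, and the called genes of the serine, glycine, proline and one-carbon list are all higher in tumor crypts. Slc7a5, Slc7a8, Slc1a4, Prodh, Arg1 and Ido1 passed the filter only through their tumor arrays, and Slc3a1 only through its control arrays. In all of these the filter itself selected for a difference.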

How the data were processed

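Total RNA of pooled crypts or adenomas was labelled with biotin and hybridised to Affymetrix arrays, per the labels' protocols. The authors deposited MAS5 signal intensity values per probe set on a linear scale, the tool being named in the submitters' processing notes. Its version is not given in the sources used here. Leaving out the highest and lowest 2% of values, every array averaged 500.2. MAS5 subtracts background and scales each array to a common mean, so a shift of most transcripts is scaled away. No detection calls were used here. Of 22690 probe sets, 64 were controls, and of the remainder 20380 had 1 symbol, 691 several and 1555 none.

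Intensities were transformed as log2(intensity + 17.8), the 25th percentile of all values, and not normalized further. Single-symbol probe sets were kept where they exceeded the median of their array at least 2 times over the 6 arrays, and each gene was tested by its probe set of highest mean. One limma fit held all 6 arrays (version 3.58.1, R 4.3.3, intensity trend, 3 group differences, 2-sided, Benjamini-Hochberg over all genes). The script was tested on simulated data. The members, gene lists, named genes and tests were chosen with earlier results of these data known. Values are given for every member called in a comparison, for 10 fixed members wherever they had a probe set, and for up to 3 called genes per list, and no list was tested as a set. Alternatives covered normalization, pseudocount, filter, probe sets of a gene, trend, arrays in the fit, the replicate number and each array left out. A term for arrays with high poly-A controls and a fit of 2 groups with the replicate number were added after the data were seen. Slc6a19 was not analysed here. Promoter windows were read from RefSeq (GRCm38.p6) with Python 3.11.15, and figures were drawn with matplotlib 3.10.9. Outliers were not tested for, since each group held 2 arrays.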

Additional observations from a re-analysis of the deposited data

How the results depend on the processing

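Differences of 31 named transporter results were recomputed under up to 18 alternatives each, 529 values in all. Of these, 473 kept their direction and side of the threshold, 50 kept the direction but no longer passed, 3 passed only in the alternative, and 3 reversed, all for Slc1a5 in tumor minus control. These were -0.14 under median centring, -0.11 without control replicate 1 (-0.11 to 0.33 over the left-out arrays) and -0.10 with a term for arrays whose poly-A controls were high. With the filter at the 75th percentile, which left 7 transporters and 11 probe sets tested, tumor minus control called 1103 genes, 4 transporters and 7 transporter probe sets, and tumor minus DSS called 1262 genes and 4 transporters. Leaving out each array in turn gave 702 to 1391 genes, 4 to 13 transporters and 7 to 17 probe sets in tumor minus control, 922 to 1927 genes and 5 to 12 transporters in tumor minus DSS, and 0 to 2 genes and 0 transporters in DSS minus control. A left-out array leaves a lone array assumed to vary like the other groups. With no filter, 42 transporters were tested, and tumor minus control called 10 of them, 3 higher and 7 lower.

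The labels do not say that arrays of different groups with the same replicate number share a batch, day or animal. Some measures did follow the number. DSS and control replicate 1 had high poly-A controls. Jchain and every smooth muscle and fibroblast marker were lower on replicate 1 than on replicate 2 in all 3 groups. Deviations of same-numbered arrays from their group means correlated at 0.45 between DSS and control. They correlated at 0.44 between tumor and DSS and at 0.08 between tumor and control. With the replicate number as a block over all 3 groups, 0 genes were called in DSS minus control, 1945 genes, 14 transporters and 18 probe sets in tumor minus control, and 2210 genes and 12 transporters in tumor minus DSS. Slc6a6 was called with this block in tumor minus control (adjusted p = 0.0356) and tumor minus DSS (adjusted p = 0.0195). With the block over tumor and DSS arrays alone, tumor minus DSS also called Slc7a9 (adjusted p = 0.0237), Slc7a7, Slc38a2 and Slc6a6. None of these passed in tumor minus DSS as reported. A fit of DSS and control alone with the replicate block, chosen after seeing the data, called 114 genes (46 higher, 68 lower) and 2 transporters, Slc3a1 (-1.25, adjusted p = 4.28e-05) and Slc7a9 (-0.77, adjusted p = 0.0128), whereas the same 2 groups without the block gave 0. With 2 arrays per group and no detection calls, values near the floor are the least certain.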
